A study of Homo sapiens with 2 samples.

Results

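The 53 genes described here encode chaperones and co-chaperones of the cytosol and mitochondria, together with the heat shock factors HSF1 and HSF2. They were chosen by name, as a list of HSP70, HSP90, HSP40, small heat shock, chaperonin and BAG genes and their cofactors. The list was drawn up with earlier results of these data known. All 53 were found among the 58174 genes of the expression table. RNA sequencing was carried out on PC3, an established human prostate cancer cell line, after transfection with an siRNA against POH1 or with a control siRNA, and there was 1 library for each siRNA. POH1, encoded by PSMD14, is a subunit of the proteasome lid that removes ubiquitin chains from substrates. Neither the siRNA sequences nor the time after transfection is given in the sources used here.

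Chaperones bind unfolded proteins and help them to fold. HSP70 proteins hold short unfolded stretches in a cycle driven by ATP, in which J-domain proteins (HSP40) deliver the substrate and start ATP hydrolysis, and BAG proteins and HSP110 proteins release the nucleotide. HSP90 acts later, on kinases, receptors and other near-native clients, with a set of cofactors. The CCT ring (also called TRiC) encloses actin, tubulin and other cytosolic proteins, and HSP60 with HSP10 does the same in mitochondria. When unfolded proteins accumulate, as they do under heat or proteasome inhibitors, HSF1 forms trimers and binds heat shock elements, which are inverted repeats of the unit GAA, to induce the stress-responsive members.

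With 1 library per siRNA, no value below has an error, no test between the siRNAs is possible and no p-value is given, so every difference is a difference between these 2 libraries. Values are TPM, a level per transcript length scaled to the same total in each library, as deposited by the authors. The read depth is unknown, and neither a counting interval nor a detection limit can be given. Differences are log2(TPM + 1) in the POH1 siRNA library less that in the control library. They cover 15008 genes whose mean reached 1 TPM, and a gene is called higher or lower where this difference reaches 1.5-fold. The pseudocount of 1 makes the difference smaller than the TPM ratio for low genes. Folds are ratios of TPM. PSMD14 was at 35.1 TPM in the POH1 siRNA library and 50.9 TPM in the control library, or 69.0% of the control. Its difference of -0.52 lay within 1.5-fold, so the targeted gene itself was not called lower. The epithelial markers KRT8, KRT18 and EPCAM and the mesenchymal marker VIM were at 141 to 556 TPM in the POH1 siRNA library and 124 to 517 TPM in the control library. The prostate luminal genes KLK3 and KLK2 were listed at 0 in both libraries. Of genes that mark other cell types, COL1A1 was at 47.8 TPM in the POH1 siRNA library and 30.9 TPM in the control library, PECAM1 at 3.88 and 4.90 TPM, and PTPRC at 0.0568 TPM and 0.

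Of the 53 genes, 51 passed the filter, and CRYAB and HSPA4L did not. At the 1.5-fold mark 5 of the 51 were higher, 9.80%, against 10.2% of all genes, and 10 were lower, 19.6%, against 8.88% of all genes. Of the 5, DNAJB4 passed the filter only through the POH1 siRNA library. At 2-fold none was higher, where 2.15% of all genes were, and 3 were lower, where 2.93% of all genes were. Of the 5721 genes whose mean reached 20 TPM, 8.53% were 1.5-fold higher and 7.64% lower. The median difference was -0.15 over the 51 genes and 0.12 over all genes. The share of calls that were higher depended on scaling. It was 33.3% for the chaperone genes and 53.5% for all genes as deposited, 21.1% and 33.7% with the median ratio set to 1, and 50% and 70.8% after adjustment for GC content. The median scaling lowers the differences of abundant genes by 0.14 on the log2 scale, and those of genes near 1 TPM by less. With it, HSPH1 (-0.64), HSPA14 (-0.65), BAG2 (-0.61), DNAJC8 (-0.70) and HSF2 (-0.60) were also lower, which made 15.

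The genes were split into inducible, constitutive, CCT and mitochondrial groups, with earlier results of these data known. The inducible group of 14 genes, 13 of which passed the filter, had a median difference of 0.13, with 1 higher (7.69%) and 2 lower (15.4%). The 1 higher gene was DNAJB4, which passed the filter only through the POH1 siRNA library. The constitutive group, 23 of 24 past the filter, had a median of -0.15, with 3 higher and 2 lower. The 8 CCT genes had a median of -0.28, with 3 lower (37.5%) and none higher. The 5 mitochondrial genes had a median of -0.61, with 3 lower (60%) and none higher. Of all genes 10.2% were higher and 8.88% lower. The share of lower genes depended on GC content, whose median was 44.3% in the CCT group and 46.9% in the mitochondrial group. Among all genes of at least 5 TPM, 23.4% of those with up to 45% GC were lower. Above 45% and up to 55% GC, 7.33% were. The members of a group did not all lie on the same side, and every group held differences both above and below 0.

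**Figure D1:**
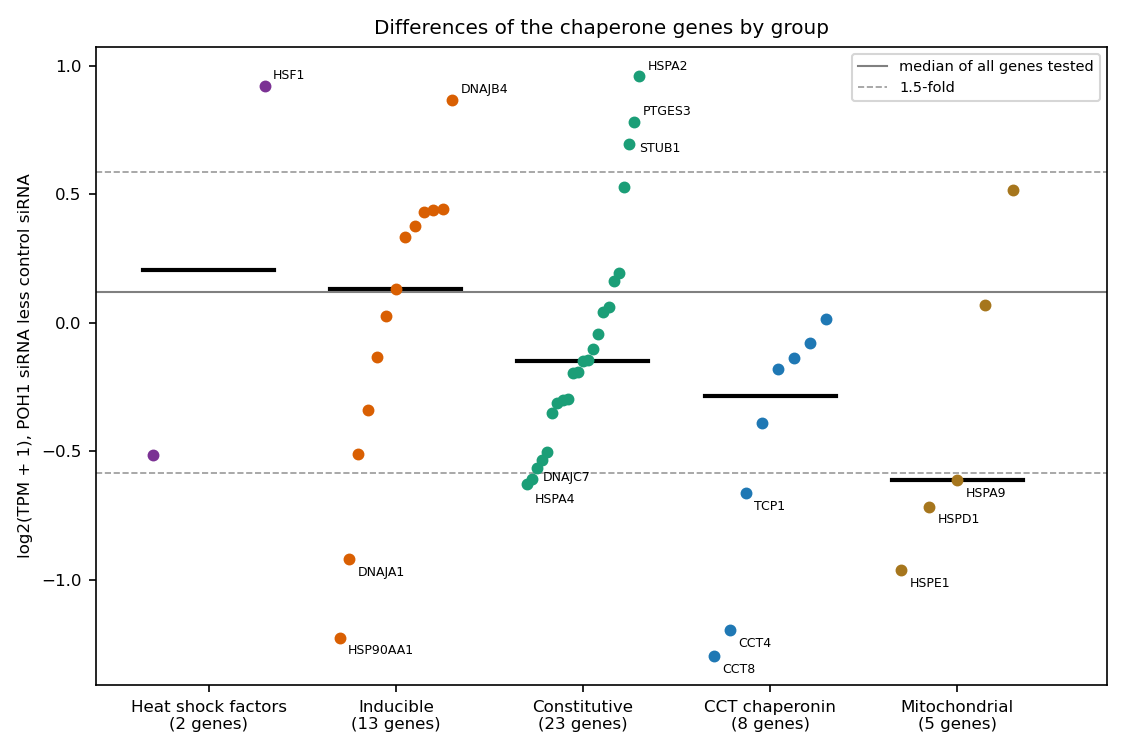
Difference in log2(TPM + 1), POH1 siRNA less control siRNA, for the 51 chaperone genes that passed the filter (points), by group, with the group median (black bars), the median of all 15008 genes (solid line, 0.12) and the 1.5-fold marks (dashed lines). Named points lie beyond 1.5-fold. The CCT and mitochondrial groups hold named genes below the control and none above it.

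To show which members carry an exact form of the heat shock element, promoter windows were searched for 3 alternating units of it. The motif reads GAA, NN, TTC, NN, GAA without a break, or its reverse complement TTC, NN, GAA, NN, TTC, where N is any base, and is 13 bases long on either strand. The windows come from RefSeq (build GRCh38.p14) and run from 250 bases before to 50 bases after each listed start. An entry was found for 47 of the 53 genes, and CCT6A, CRYAB, FKBP4, HSF1, HSPA14 and STUB1 had none. The 3-unit motif was in 8 of the 65 windows of these genes, 12.3%, against 0.490% of all 35116 windows. The 8 windows belong to 8 genes, HSPA6, HSPD1, HSP90AB1, DNAJB6, DNAJA1, CHORDC1, HSPA8 and HSP90AA1. The sites of 7 of them are shown, from the most lowered inducible gene, HSP90AA1, to genes level with the control such as HSPA8. The site of DNAJB6, which had the highest difference of the 8 (0.16), lies 131 bases before its start and is not shown. For HSP90AB1 and HSPA8, which hold a pair of matches each, the one nearer the start is shown. Capitals mark the match, and overlapping matches are joined.
HSP90AA1: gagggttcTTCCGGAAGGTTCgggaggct
HSP90AB1: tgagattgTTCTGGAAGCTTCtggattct
HSPA8: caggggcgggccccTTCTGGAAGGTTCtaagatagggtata
HSPA6: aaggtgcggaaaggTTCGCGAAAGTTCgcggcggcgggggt
CHORDC1: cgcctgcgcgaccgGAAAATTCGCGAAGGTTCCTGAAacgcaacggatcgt
DNAJA1: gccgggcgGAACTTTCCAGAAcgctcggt
HSPD1: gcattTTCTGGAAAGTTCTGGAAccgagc

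The HSP90AA1 sequence lies at chr14:102087112-102087140 on the minus strand, with the motif 88 bases before a listed start. That of HSP90AB1 lies at chr6:44247823-44247851 on the plus strand, 112 bases before a start. Both genes have several listed starts, and these sites lie past another of them. HSPA8 has its site at chr11:123062165-123062205 on the minus strand, 55 bases before the start, and HSPA6 at chr1:161524452-161524492 on the plus strand, 74 bases before it. The CHORDC1 site, at chr11:90223073-90223123 on the minus strand, begins 60 bases before the start and holds a run of 23 matching bases. In DNAJA1 the motif begins at base 4 of the transcript (chr9:33025268-33025296, plus strand). In HSPD1 it lies 245 bases before the second of the listed starts and past the first (chr2:197500062-197500090, minus strand). The 8 genes with the motif had differences between -1.22 and 0.16, with a median of -0.12 and 3 lower, and the 38 other genes that passed the filter and had a window had a median of -0.18 with 3 higher and 7 lower. Among all genes 10.2% were higher and 8.88% lower. HSPA1A, HSPA1B and DNAJB1, which hold shorter elements of 2 units, are among the 38. A match is a description of the letters and not of binding, and the lack of an exact match is not the lack of a site.

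HSF1, the main transcription factor of the heat shock response (ENSG00000185122), was at 207 TPM in the POH1 siRNA library and 109 TPM in the control library, 1.90-fold higher and a difference of 0.92. Of the 242 genes within 2-fold of its mean TPM and within 2.5 percentage points of its GC content (64.2%), 1.24% were as high or higher. HSF1 overlaps DGAT1, on the opposite strand, which was at 190 TPM in the POH1 siRNA library and 110 TPM in the control library. The sum of both differed by 0.86. Whether the counting used strand is not given in the sources used here, and without it reads from such a pair cannot be told apart. HSF2, a related factor, was at 1.60 TPM in the POH1 siRNA library and 2.71 TPM in the control library, a difference of -0.51 that lay within 1.5-fold. So the heat shock factors lay on opposite sides of the control.

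HSPA1A and HSPA1B encode the stress-inducible HSP70. HSPA1A was at 315 TPM in the POH1 siRNA library and 232 TPM in the control library, and HSPA1B at 287 and 211 TPM in the same order. Both differed by 0.44 and lay within 1.5-fold. The longest reading frames of these neighbouring genes share 1922 of 1926 aligned bases, 99.8%, so that how reads were divided between them is uncertain. HSPA1A made up 52.4% of their sum in the POH1 siRNA library and 52.3% in the control library. Their upstream sequences were alike too, with 93.6% identity over the 250 bases before the start. The shown stretch of each promoter holds a 2-unit element (capitals), GAA, NN and TTC in a row, and neither window has the 3-unit motif.
HSPA1A: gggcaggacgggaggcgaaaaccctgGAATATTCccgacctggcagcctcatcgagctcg
HSPA1B: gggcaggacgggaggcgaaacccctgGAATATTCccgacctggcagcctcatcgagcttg

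These stretches lie at chr6:31815411-31815470 and chr6:31827607-31827666, both on the plus strand, with the element 106 and 105 bases before the start. A 2-unit element, in this order or as TTC, NN and GAA, on either strand, was in 35.4% of the members' windows and in 13.5% of all windows. HSPA8, the constitutive HSC70, was at 1553 TPM in the POH1 siRNA library and 1486 TPM in the control library, a difference of 0.06. HSPA6, an HSP70 gene that is strictly inducible in human cells, was low, at 2.40 TPM in the POH1 siRNA library and 2.73 TPM in the control library. HSPA2, best known from testis, was at 4.02 TPM in the POH1 siRNA library and 1.58 TPM in the control library, 2.54-fold higher as a ratio of low values and 0.96 on the log2(TPM + 1) scale. The sum of these 5 HSP70 genes was 2161 TPM in the POH1 siRNA library and 1933 TPM in the control library. HSPA1A and HSPA1B held 27.9% of that sum in the POH1 siRNA library and 22.9% in the control library, and HSPA8 held most of the rest.

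Of the HSP110 genes, which act as nucleotide exchange factors, HSPA4 was at 22.4 TPM in the POH1 siRNA library and 35.1 TPM in the control library, 1.57-fold lower, and HSPH1, the heat-inducible HSP110, at 13.4 and 19.5 TPM, within 1.5-fold. Of 656 genes near HSPA4 in TPM and GC content, 21.8% were as low or lower. HSPA4L stood at 0.665 TPM in the POH1 siRNA library and 0.634 TPM in the control library, below the filter. HSPA14, a ribosome-bound HSP70 relative, was at 6.80 TPM in the POH1 siRNA library and 10.3 TPM in the control library (-0.53). It shares exon sequence with MSANTD7, and the sum of both genes differed by -0.34.

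Among the BAG genes, BAG3, which links HSP70 to selective autophagy and is induced by HSF1, was at 207 TPM in the POH1 siRNA library and 153 TPM in the control library, a difference of 0.43. BAG6, which holds membrane proteins on their way to insertion or to the proteasome, was at 255 TPM in the POH1 siRNA library and 176 TPM in the control library, a difference of 0.53. Both lay within 1.5-fold. The less abundant BAG1, BAG2 and BAG5 had differences of -0.20, -0.50 and -0.30. Their sum with BAG3 and BAG6 was 495 TPM in the POH1 siRNA library and 370 TPM in the control library. STUB1, the ubiquitin ligase CHIP that marks HSP70 and HSP90 clients for degradation, was 1.63-fold higher, at 185 TPM in the POH1 siRNA library and 113 TPM in the control library (0.70). STUB1 overlaps JMJD8 on the opposite strand, at 82.6 TPM in the POH1 siRNA library and 68.0 TPM in the control library, and the difference of the sum was 0.56, within 1.5-fold. STUB1 itself was within 1.5-fold with median scaling (0.56), trimmed mean scaling (0.57) and GC adjustment (0.52).

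The small heat shock proteins hold unfolded proteins in a form that can be refolded. HSPB1, which encodes HSP27, was among the most abundant members, at 1289 TPM in the POH1 siRNA library and 1178 TPM in the control library (0.13). HSPB8, the partner of BAG3, was at 1.55 and 1.02 TPM in the same order, and CRYAB at 1.07 and 0.841 TPM. HSPB11 (current symbol IFT25), which despite its name is a subunit of the intraflagellar transport complex, was at 15.3 TPM in the POH1 siRNA library and 17.1 TPM in the control library. ZFAND2A (AIRAP), a proteasome-associated protein induced by arsenite, was at 55.9 TPM in the POH1 siRNA library and 71.0 TPM in the control library (-0.34). None of these genes passed 1.5-fold on the log2(TPM + 1) scale, although HSPB8 had a TPM ratio of 1.52.

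**Figure D2:**
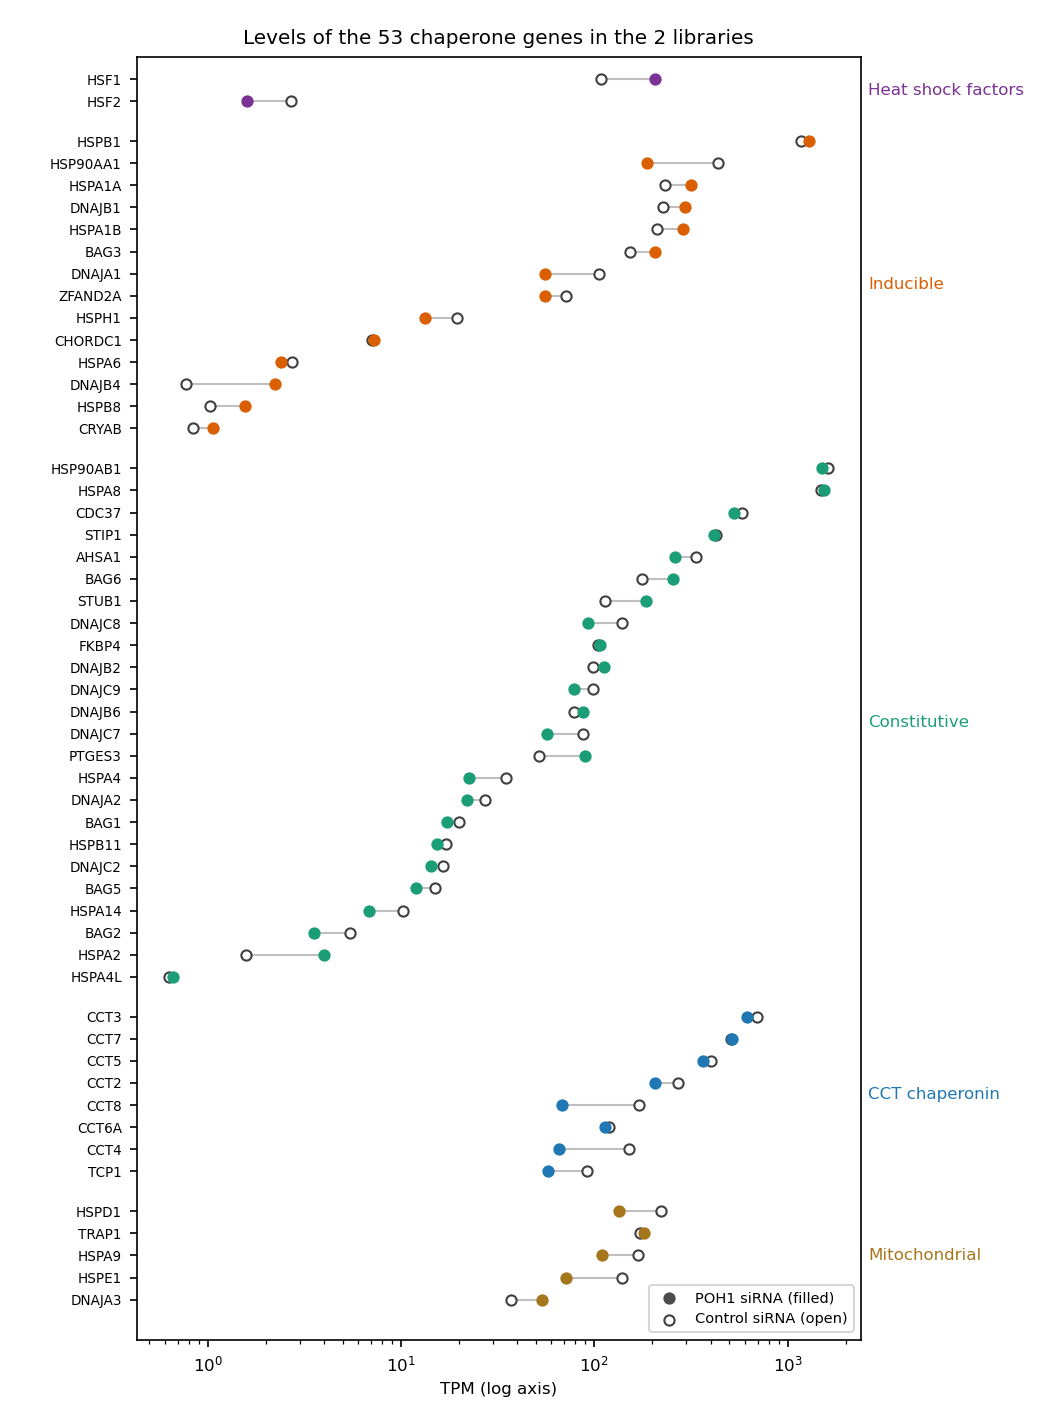
TPM of the 53 chaperone genes (log axis) in the POH1 siRNA library (filled points) and the control siRNA library (open points), by group and ordered by mean TPM within each. HSP90AA1, CCT8 and CCT4 show the longest lines to the left among abundant genes, and HSF1 lies to the right of its control point.

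The cytosolic HSP90 genes had unequal differences. HSP90AA1, the inducible HSP90 alpha (ENSG00000080824), was at 187 TPM in the POH1 siRNA library and 439 TPM in the control library, 2.34-fold lower. HSP90AB1, the constitutive HSP90 beta, was at 1512 TPM in the POH1 siRNA library and 1621 TPM in the control library, a difference of -0.10. HSP90AA1 made up 11.0% of the HSP90 sum in the POH1 siRNA library and 21.3% in the control library, and the sum was 1700 and 2060 TPM. Of the 777 genes within 2-fold of the mean TPM of HSP90AA1, 2.06% were as low or lower, and of the 78 also within 2.5 percentage points of its GC content (43.6%), 12.8% were. HSP90AA1 overlaps WDR20 on the opposite strand, which was at 11.4 TPM in the POH1 siRNA library and 10.2 TPM in the control library. The sum of both genes differed by -1.17, and adding the 4 named HSP90AA pseudogenes left -1.22.

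The HSP90 cofactors did not follow HSP90AA1 as a group. PTGES3, which encodes p23 and stabilizes the closed state of HSP90, was 1.73-fold higher, at 89.3 TPM in the POH1 siRNA library and 51.5 TPM in the control library. Its GC content was 41.8%, and of 249 genes of like TPM and GC content 1.61% were as high or higher. STIP1 (HOP), which joins HSP70 to HSP90, was at 416 and 429 TPM, and CDC37, the adaptor for kinases, at 526 and 582 TPM, in the POH1 siRNA library and the control library. AHSA1, which stimulates the ATPase of HSP90, was at 262 TPM in the POH1 siRNA library and 335 TPM in the control library (-0.35), the prolyl isomerase FKBP4 at 107 and 104 TPM, and CHORDC1 at 7.23 and 7.08 TPM. Except for PTGES3, none of these 6 cofactors passed 1.5-fold. Their sum was 1408 TPM in the POH1 siRNA library and 1508 TPM in the control library.

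The J-domain genes divided as well. DNAJA1, a main partner of HSC70, was 1.91-fold lower, at 55.5 TPM in the POH1 siRNA library and 106 TPM in the control library (-0.92). DNAJB1, the HSP40 induced with HSPA1A, was at 295 TPM in the POH1 siRNA library and 227 TPM in the control library (0.38, within 1.5-fold). The ratio of DNAJB1 to DNAJA1 was 5.32 in the POH1 siRNA library and 2.15 in the control library. DNAJB1 overlaps TECR on the opposite strand, which was at 348 TPM in the POH1 siRNA library and 310 TPM in the control library. DNAJC7, which also binds HSP90, was at 57.2 TPM in the POH1 siRNA library and 87.6 TPM in the control library, 1.53-fold lower. It overlaps CNP and NKIRAS2, and its difference of -0.61 was -0.24 for the sum with either. Of 424 genes near DNAJC7 in TPM and GC content, 19.1% were as low or lower.

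DNAJB4 was the member with the highest ratio, 2.90, from 2.23 TPM in the POH1 siRNA library and 0.770 TPM in the control library. It passed the filter only through the POH1 siRNA library, so it had to differ. The other J-domain genes lay within 1.5-fold. DNAJC8, a spliceosome-associated protein, was at 93.3 TPM in the POH1 siRNA library and 138 TPM in the control library (-0.57), and DNAJC9, a histone chaperone, at 78.8 and 98.1 TPM in the same order (-0.31). DNAJC9 shares exon sequence with MRPS16, and the sum differed by 0.21. DNAJA2 (-0.30), the ribosome-associated DNAJC2 (-0.19), DNAJB2 (0.19) and DNAJB6 (0.16), which suppresses aggregation of polyglutamine proteins, were closer to the control.

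The CCT ring holds each of its different subunits in equal number. CCT8 (theta, ENSG00000156261) was at 68.5 TPM in the POH1 siRNA library and 170 TPM in the control library, 2.48-fold lower and the largest difference of all 51 genes, -1.30. CCT4 (delta) was at 65.4 TPM in the POH1 siRNA library and 151 TPM in the control library, 2.31-fold lower, and TCP1 (alpha) at 57.5 and 91.6 TPM, 1.59-fold lower. These 3 subunits were the lowest of the ring in the POH1 siRNA library, while in the control library CCT6A was lower than CCT4 and CCT8. The remaining subunits lay within 1.5-fold.

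CCT2 (beta) was at 206 TPM in the POH1 siRNA library and 271 TPM in the control library, CCT3 (gamma) at 615 and 696 TPM, and CCT5 (epsilon) at 366 and 403 TPM. CCT6A (zeta) was at 113 TPM in the POH1 siRNA library and 120 TPM in the control library, and CCT7 (eta) at 515 and 509 TPM. Thus 7 of the 8 lay below the control and CCT7 differed by 0.02. The highest subunit exceeded the lowest by 10.7-fold in the POH1 siRNA library and 7.60-fold in the control library, and the coefficient of variation over the 8 subunits was 88.1% and 71.8%. Their sum was 2007 TPM in the POH1 siRNA library and 2411 TPM in the control library. Of the 1955 genes within 2-fold of the mean TPM of CCT8, 1.23% were as low or lower, and of the 110 also near it in GC content (40.9%), 3.64% were. For CCT4 these shares were 1.89% of 2116 and 6.45% of 248 genes, and for TCP1 5.81% of 2736 and 19.5% of 364 genes. CCT6A had nearly the same GC content as CCT8, 40.8%, and a difference of -0.08. CCT4 overlaps COMMD1 and TCP1 overlaps ACAT2 on the opposite strand, and the sums of these pairs differed by -1.01 and -0.69.

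**Figure D3:**
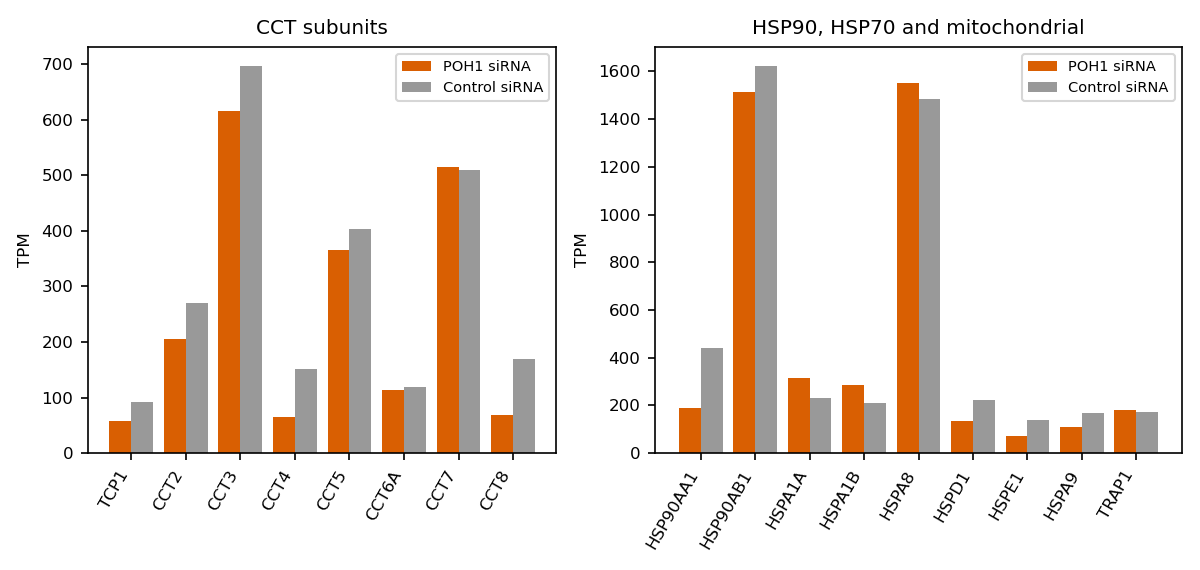
TPM (linear axis from 0) of the 8 CCT subunits (left) and of HSP90, HSP70 and mitochondrial chaperone genes (right) in the POH1 siRNA library (orange bars) and the control siRNA library (grey bars), 1 library each and without error bars. CCT4, CCT8 and HSP90AA1 are under the control by more than 2-fold beside CCT7, HSP90AB1 and HSPA8, which are not.

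In mitochondria, HSPD1 (HSP60) and HSPE1 (HSP10) form the chaperonin, and their genes are transcribed away from each other out of a shared promoter. HSPE1 was at 71.4 TPM in the POH1 siRNA library and 140 TPM in the control library, 1.96-fold lower, and HSPD1 at 134 and 221 TPM, 1.65-fold lower. The ratio of HSPD1 to HSPE1 was 1.88 in the POH1 siRNA library and 1.58 in the control library. The 104 bases between their listed starts are shown as the sequence both genes share, read on the plus strand from the side of HSPD1 to that of HSPE1.
HSPD1-HSPE1: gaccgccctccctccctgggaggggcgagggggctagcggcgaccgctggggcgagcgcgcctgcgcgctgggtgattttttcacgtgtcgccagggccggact

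This stretch, at chr2:197500275-197500378, has a GC content of 74.0% and holds no 3-unit motif. HSPA9 (mortalin), the mitochondrial HSP70 that pulls in imported proteins, was at 109 TPM in the POH1 siRNA library and 168 TPM in the control library, 1.53-fold lower. TRAP1, the mitochondrial HSP90, was at 181 and 172 TPM in the same order (0.07). DNAJA3 (TID1), the J-domain partner of HSPA9, was at 53.5 TPM in the POH1 siRNA library and 37.1 TPM in the control library (0.52), within 1.5-fold. The chaperonin pair and HSPA9 thus lay below the control, and TRAP1 and DNAJA3 above it. Among genes of like TPM and GC content, the share as low or lower was 5.26% for HSPE1, 21.3% for HSPD1 and 23.4% for HSPA9. The sum of the 5 genes was 550 TPM in the POH1 siRNA library and 738 TPM in the control library. HSPE1 shares exons with the read-through gene HSPE1-MOB4, which was at 0.767 TPM in the POH1 siRNA library and 4.15 TPM in the control library, and the sum differed by -0.99. HSPD1 and HSPE1 also overlap each other on opposite strands, and their joint sum differed by -0.81.

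GC content moved with these differences. Over the 45 chaperone genes with a mean of at least 5 TPM the Spearman correlation between GC content and difference was 0.63, and over all 10114 such genes it was 0.46, in both cases across genes of the same 2 libraries that are not independent. Of the 19 chaperone genes with up to 45% GC, 17 lay below 0 and 7 were at least 1.5-fold lower (median -0.51, against -0.21 in all 2202 such genes, of which 23.4% were lower). In this range 1 chaperone gene was higher, against 4.27% of all genes. Of the 15 chaperone genes above 45% and up to 55% GC, 10 lay below 0 (median -0.14, against 0.08 in 3862 genes). Of these 15, 3 were at least 1.5-fold lower and none was higher, against 7.33% lower and 8.34% higher among the 3862 genes. Of the 11 chaperone genes above 55% GC, 10 lay above 0 (median 0.43, against 0.29 in 4050 genes). Of these 11, 2 were at least 1.5-fold higher and none was lower, against 13.2% higher and 1.36% lower among the 4050 genes. The median GC content was 44.3% in the CCT group, 46.9% in the mitochondrial group, 46.8% in the constitutive group and 51.2% in the inducible group. When the running median along GC content was subtracted and the overall median added back, the group medians were -0.05, -0.37, 0.04 and 0.28, beside 0.15 for all genes. After this adjustment 4 genes were lower, CCT8 (-0.92), CCT4 (-0.91), HSP90AA1 (-0.89) and HSPE1 (-0.83), and 4 were higher, DNAJB4 (1.24), PTGES3 (1.13), HSPA2 (0.88) and HSF1 (0.74). DNAJB4 passed the filter only through the POH1 siRNA library. Over all 14983 genes with a GC content, 12.6% were higher and 5.19% lower after the adjustment, against 4 of 51 chaperone genes in each direction. HSPA1A, HSPA1B, DNAJB1 and BAG3, with 55.1% to 59.3% GC, had adjusted differences of 0.28 to 0.33. Before adjustment, 12.0% (for HSPA1A) to 18.5% (for BAG3) of genes of like TPM and GC content were as high or higher. Of the other inducible genes past the filter, HSPB1 (-0.06), HSPH1 (-0.08), HSPA6 (-0.25), ZFAND2A (-0.31), DNAJA1 (-0.56) and HSP90AA1 lay below 0 after adjustment. CHORDC1 (0.39), HSPB8 (0.45) and DNAJB4 lay above it. The part of GC content in the differences was not tested.

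**Figure D4:**
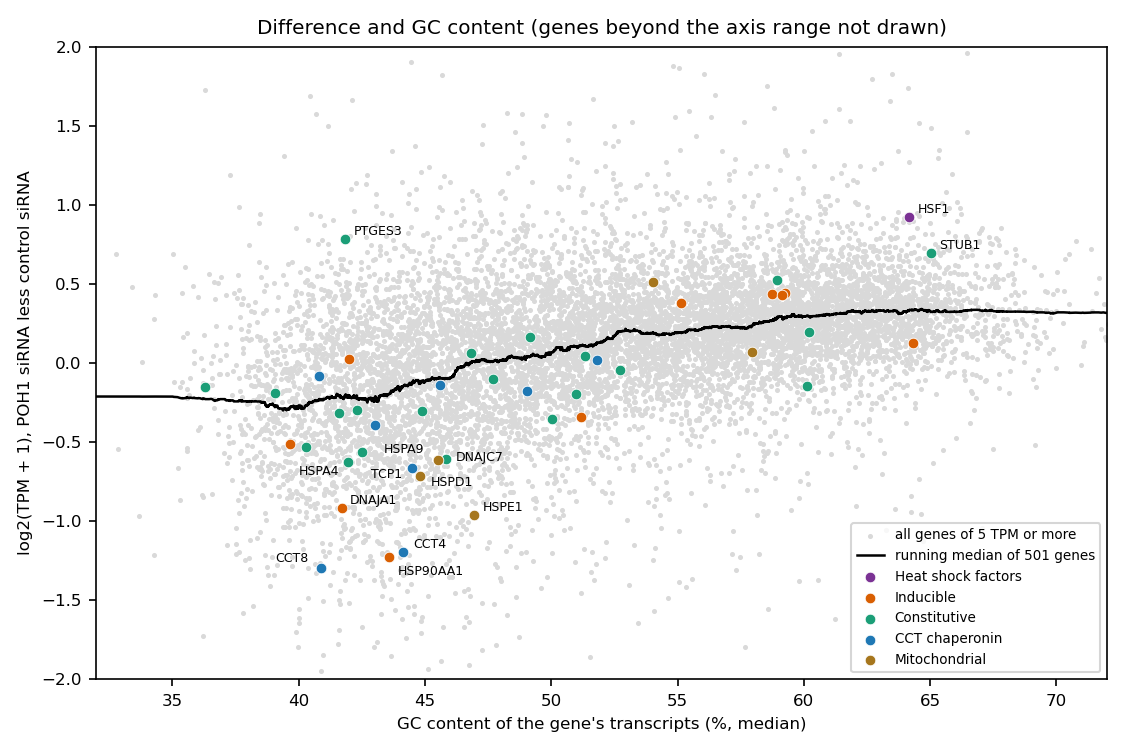
Difference in log2(TPM + 1), POH1 siRNA less control siRNA, against the GC content of each gene's transcripts (percent), for genes of at least 5 TPM. Coloured points are the 45 chaperone genes by group, and the black line is the running median of all genes. HSP90AA1, CCT4, CCT8 and HSPE1 lie well under the line at their GC content, and PTGES3 and HSF1 above it.

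Other genes that serve the same chaperones were compared from lists of names, to be read against 10.2% higher and 8.88% lower among all genes. HSCB, DNAJC19 and DNAJC15 stand in both the J-domain and the mitochondrial list. Of 26 further J-domain genes past the filter, 2 were higher (7.69%) and 1 was lower (3.85%), with a median of 0.02. DNAJC14 was at 49.6 TPM in the POH1 siRNA library and 29.8 TPM in the control library, DNAJB14 at 2.61 and 1.15 TPM, and DNAJC10, an endoplasmic reticulum reductase, at 2.80 and 7.39 TPM. On the opposite strand, DNAJC14 overlaps TMEM198B, at 28.4 and 15.0 TPM in the same order, and ORMDL2, at 41.9 and 43.6 TPM. The most abundant of the 26 were DNAJC11, at 91.8 TPM in the POH1 siRNA library and 89.0 TPM in the control library, and DNAJC5, at 93.9 and 68.1 TPM. Of 22 further HSP70 and HSP90 cofactors, 1 was higher (4.55%) and none lower, with a median of 0.17. This was PPP5C, a phosphatase that binds HSP90, at 66.8 TPM in the POH1 siRNA library and 40.6 TPM in the control library. FKBP8 was at 418 and 327 TPM in the same order, and NUDC at 386 and 338 TPM. None of 6 other small heat shock genes passed the filter.

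Prefoldin delivers actin and tubulin to CCT. Of its subunits PFDN1 was at 37.2 TPM in the POH1 siRNA library and 169 TPM in the control library, a difference of -2.16, while PFDN5 was at 768 and 796 TPM and PFDN2 at 753 and 721 TPM. PFDN1 overlaps CYSTM1 on the opposite strand, which was at 75.9 TPM in the POH1 siRNA library and 61.7 TPM in the control library. Of the 13 prefoldin, tubulin cofactor and CCT helper genes, 2 were lower (15.4%, against 8.88% of all genes) and 1 higher (7.69%, against 10.2%), with a median of -0.01. The other lower gene was PDCL3, a phosducin-like CCT cofactor, at 22.8 TPM in the POH1 siRNA library and 37.4 TPM in the control library, and the higher one TBCB, at 133 and 85.9 TPM. TBCB overlaps POLR2I on the opposite strand, which was at 63.5 TPM in the POH1 siRNA library and 50.2 TPM in the control library.

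Of 15 further genes of mitochondrial protein quality control, 1 was higher (6.67%, against 10.2% of all genes) and none lower (against 8.88%), with a median of -0.03. GRPEL2, a nucleotide exchange factor of HSPA9, was at 7.13 TPM in the POH1 siRNA library and 3.07 TPM in the control library. The abundant prohibitins PHB, at 466 TPM in the POH1 siRNA library and 411 TPM in the control library, and PHB2, at 258 and 188 TPM, lay within 1.5-fold. So did CLPP, at 264 TPM in the POH1 siRNA library and 204 TPM in the control library. Among 9 genes that work with heat shock factors, HIKESHI, which carries HSP70 into the nucleus upon heat shock, was at 6.43 TPM in the POH1 siRNA library and 20.1 TPM in the control library, a difference of -1.50. NFYA, a subunit of the CCAAT-binding factor, was higher, at 39.3 TPM in the POH1 siRNA library and 25.2 TPM in the control library. It overlaps OARD1 on the opposite strand, at 7.61 and 10.8 TPM in the same order. VCP was at 299 and 240 TPM in the same order, and HSBP1L1 at 82.4 and 84.0 TPM. The median of these genes was 0.07.

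Together the 53 genes made up 1.09% of all TPM in the POH1 siRNA library and 1.15% in the control library. HSP90AB1, HSPA8 and HSPB1 were the most abundant in both libraries, and the 10 lower genes had mean levels between 28.8 TPM (HSPA4) and 313 TPM (HSP90AA1).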

How the data were processed

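RNA from PC3 cells was sequenced in 2 libraries, 1 per siRNA, so no test between groups was made and no replicate could be left out. The submitters' processing notes name CASAVA, HISAT2 and genome build hg19. Versions, annotation, quantifier and depth are not given in these sources. The values deposited by the authors are TPM per Ensembl gene, summing to 999968 in the POH1 siRNA library and 999955 in the control library, and a change in abundant transcripts shifts all others.

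Symbols came from a name table (57392 of 58174 identifiers), with GENCODE release 29 (GRCh38) for HSPB11, PHB, GC content and exon overlap. TBCE was not matched. GC content is the median over a gene's transcripts. The adjustment subtracted the running median over neighbouring genes of at least 5 TPM and added back their median. Of the tested members, 17 overlap an opposite-strand gene of at least 1 TPM and 6 share same-strand exons with one. The calculations were checked on simulated data (Python 3.11.15, pandas 2.3.3).

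Members, groups, companion lists and thresholds were chosen with earlier results of these data known. Named were PSMD14, every member, companion genes past 1.5-fold and the 2 most abundant of each list, with PHB2 beside PHB and HSF4 beside HSF1 and HSF2. Alternatives were other pseudocounts, filters and scalings, GC adjustment, sums with genes that share exons, and their removal.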

Additional observations from a re-analysis of the deposited data

How the results depend on the processing

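No paired analysis was possible because each siRNA had 1 library, and for the same reason no replicate could be left out. A group median is said to have moved when it changed by 0.1 or more. The 5 higher genes became 3 with a pseudocount of 5 and 3 with a filter at 5 TPM, and 4 with median scaling, trimmed mean scaling and GC adjustment. Of all genes, 1535 of 15008 were higher as deposited, 636 of 15008 with a pseudocount of 5 and 952 of 10121 with a filter at 5 TPM. With median scaling 934 of 14864 were higher, with trimmed mean scaling 982 of 14875 and after GC adjustment 1886 of 14983. The 10 lower genes became 4 after GC adjustment, 8 with a pseudocount of 5 and 8 without genes that share exons, but 13 with a pseudocount of 0.1 and 15 with median scaling, trimmed mean scaling and without mitochondrial and top genes. The count of lower genes among all genes changed too. It was 1333 as deposited, 778 after GC adjustment, 668 with a pseudocount of 5 and 1770 with a pseudocount of 0.1. With median scaling it was 1839, with trimmed mean scaling 1790, and without mitochondrial and top genes 1833 of 15987. With the median ratio set to 1, the medians were -0.28 for all chaperone genes, -0.28 for the constitutive, -0.42 for the CCT and -0.75 for the mitochondrial group, and the inducible median turned to -0.0075. With trimmed mean scaling they were -0.27, -0.27, -0.41, -0.74 and 0.0045. Both scalings lower the differences of the chaperone genes, those of low genes by less. After GC adjustment they were -0.021 for all, 0.28 for the inducible, -0.049 for the CCT and -0.37 for the mitochondrial group, and the constitutive median turned to 0.038. Without genes that share exons, the mitochondrial median was -0.10, over HSPD1 and DNAJA3 alone. Of the 15 genes past 1.5-fold, 6 remained so under every alternative that gave a value, HSP90AA1, CCT4, CCT8, HSPE1, HSF1 and PTGES3. Their differences ran from -1.36 to -0.89 for HSP90AA1, from -1.33 to -0.91 for CCT4, from -1.43 to -0.92 for CCT8, from -1.10 to -0.83 for HSPE1, from 0.74 to 0.93 for HSF1 and from 0.65 to 1.13 for PTGES3. The unknown depth limits what can be said of members near 1 TPM, such as DNAJB4, HSPA2, HSPB8 and CRYAB.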
